A study of Gallus gallus with 26 samples.

Results

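The joint interzone is the layer of flattened mesenchymal cells that marks the place of a future synovial joint between the cartilage elements of a digit. Within interzone chromatin, 2 histone marks were set against each other, acetylation of lysine 27 (H3K27ac, 3 peak lists) and monomethylation of lysine 4 of histone H3 (H3K4me1, 2 peak lists). The 5 libraries were taken by mark and tissue from the labels, out of 26 samples in the series, and every deposited peak was kept, which gave 379410 interzone peaks of 773723 peaks in all. The series compared the interzone with the adjacent proximal phalange in White Leghorn chick embryos incubated for 7.5 days to stage HH32, by RNA-seq and by chromatin immunoprecipitation with sequencing (ChIP-seq) of these marks. All embryos were untreated, and 100 pieces of tissue from hindlimb digit 3 were pooled for each ChIP-seq sample, digested with collagenase, filtered to single cells and crosslinked. A pool therefore averages over embryos and over every cell type in the dissected piece, so more cells with a mark and more signal per cell cannot be told apart. The phalange lists (3 of H3K27ac, 2 of H3K4me1) were used only to see whether a pattern differed between the tissues.

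H3K4me1 is laid down at enhancers, including those that are primed or poised, and it often precedes activation. H3K27ac is added by the p300 and CBP acetyltransferases and marks enhancers and promoters in use, so an enhancer that carries both marks is usually read as active and one with H3K4me1 alone as primed. At active promoters the nucleosomes next to the start site tend to carry H3K4me3, and H3K4me1 is then found to either side of them. These statements are background and were not tested here, since the lists hold no gene annotation.

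The H3K27ac lists were shorter than the H3K4me1 lists. They held 58090, 60927 and 53697 peaks, against 106445 and 100251 H3K4me1 peaks, a mean difference of -45777 (exact permutation test, two-sided p = 0.2, the smallest p that 3 against 2 libraries allow). Median peak width was 651, 635 and 728 bp for H3K27ac, against 854 and 844 bp for H3K4me1, a mean difference of -178 bp (exact permutation p = 0.2). The order of the widths depended on the peaks kept, at -138 bp with a q of at most 0.05, -698 bp for the 50000 peaks of lowest p in each list, 533 bp wider for H3K27ac with a q of at most 0.001 and 238 bp wider among peaks of at least 500 bp. Lists of the same mark shared more bases than lists of different marks. The Jaccard index, the bases shared over the bases covered by either list, was 0.690 to 0.705 among the H3K27ac lists and 0.731 between the H3K4me1 lists. It was 0.386 to 0.429 over the 6 pairs across marks, so by this index each library grouped with its labelled mark. Lists of unequal covered length cannot reach an index of 1. Counted by peaks, 70.0 to 78.9% of the peaks of an H3K27ac list overlapped another H3K27ac list. More of them, 75.6 to 82.9%, overlapped an H3K4me1 list, in each of the 3 libraries. The H3K4me1 lists were longer, which by itself raises that share. Of H3K4me1 peaks, 82.1 and 88.7% overlapped the other H3K4me1 list and 42.0 to 46.0% an H3K27ac list.

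H3K27ac held more of its bases in very wide peaks than H3K4me1. Peaks over 5 kb numbered 2730, 3004 and 2944 for H3K27ac and held 30.2, 30.7 and 32.4% of its peak bases, against 3214 and 2978 peaks with 18.0 and 17.7% of the bases for H3K4me1. Peaks over 20 kb numbered 131, 138 and 157 for H3K27ac, against 65 and 59 for H3K4me1, and the groups did not overlap. Within every list wide peaks were also strong ones. The rank correlation of width with fold was 0.72, 0.70 and 0.75 over the peaks of the H3K27ac lists, against 0.69 and 0.69 over those of the H3K4me1 lists, a description over peaks of 1 library each.

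Most H3K27ac chromatin lay inside H3K4me1 chromatin, and about equal parts of H3K4me1 chromatin lay inside and outside H3K27ac. The joined H3K27ac lists covered 110.2 Mb, 10.4% of the 1059 Mb spanned by peaks, against 159.3 Mb or 15.05% for H3K4me1, and 83.6 Mb was covered by both. Of the H3K27ac bases 75.8% lay in H3K4me1 peaks, which was 5.04 times the share of the spanned genome that H3K4me1 covered. Of the H3K4me1 bases 52.5% lay in H3K27ac peaks. Counted by peaks, 83.0, 79.7 and 85.7% of H3K27ac peaks overlapped an H3K4me1 peak of either library by at least 1 base (82.8 ± 3.02%, SD, n = 3), against 49.9 and 52.8% of H3K4me1 peaks that overlapped an H3K27ac peak of any library (51.3 ± 2.01%, SD, n = 2). The difference was 31.5 percentage points (exact permutation p = 0.2), and every H3K27ac library was above every H3K4me1 library. With the 50000 peaks of lowest p taken from each list, which removes a larger share of the H3K4me1 lists than of the H3K27ac lists, 70.7% of H3K27ac peaks and 70.2% of H3K4me1 peaks overlapped the other mark, a difference of 0.483 points (exact permutation p = 1). Other settings left a wide difference, at 37.0 points with a q of at most 0.001, 37.5 among peaks of at least 500 bp and 39.997 with the other mark required in every library.

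Where the other mark sat around each peak was then sorted into 4 exclusive places. It was present at the central base of the peak, or absent there but present on both sides within the peak or up to 1000 bp beyond its edges, or on 1 side only, or on neither side. H3K4me1 was at the centre of 75.8, 71.6 and 77.9% of H3K27ac peaks, on both sides of 5.78, 6.21 and 6.16%, on 1 side of 8.64, 10.9 and 8.202%, and at neither place in 9.82, 11.3 and 7.75%. H3K27ac was at the centre of 40.8 and 43.96% of H3K4me1 peaks, on both sides of 4.07 and 3.91%, on 1 side of 10.5 and 10.35%, and at neither place in 44.6 and 41.8%. In points, the marks were thus unequal mainly at the ends of this scale, in the shares at the centre and at neither place. The flanking shares lay closer. The both-sides share was still higher for H3K27ac peaks in every library, at 6.05 ± 0.232% (SD, n = 3) against 3.99 ± 0.111% (SD, n = 2).

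**Figure D1:**
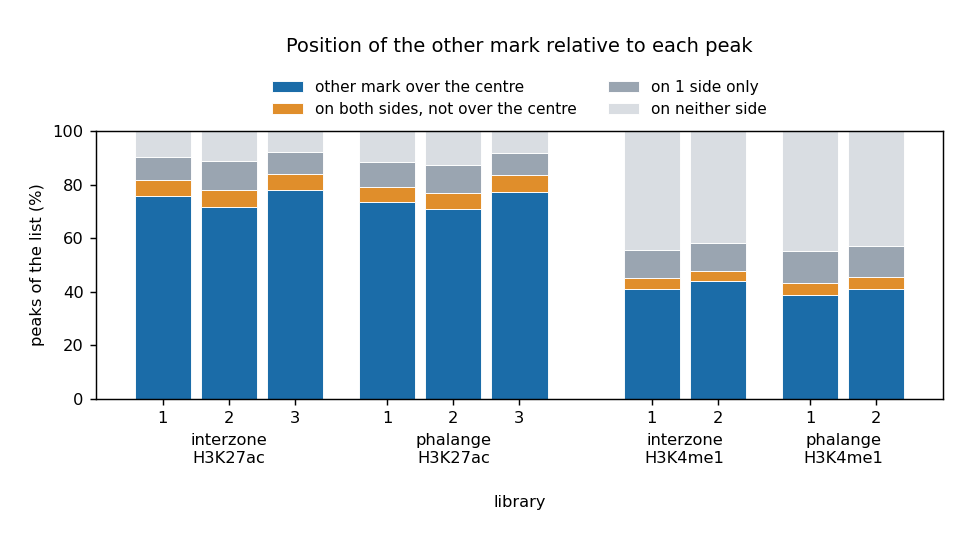
Stacked percentage of the peaks of each interzone and phalange library (1 bar each, numbered by replicate) with the other mark at the centre, on both sides, on 1 side or on neither side, with H3K27ac libraries left of H3K4me1 libraries. In interzone the centre share is 71.6 to 77.9% for H3K27ac and 40.8 to 43.96% for H3K4me1, and the share with neither is 7.75 to 11.3% and 41.8 to 44.6%.

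Peaks that lacked the other mark were narrower and weaker in the median than peaks of their list that overlapped it. A wide peak meets the overlap rule more easily by its length alone, and this part of the width difference was not separated. Some strong H3K4me1 peaks also lacked H3K27ac, as given below. H3K27ac peaks without any H3K4me1 overlap had median widths of 332, 330 and 329 bp and median folds of 2.40, 2.41 and 2.36, while H3K27ac peaks with H3K4me1 had 807, 853 and 903 bp and folds of 2.79, 2.79 and 2.77. H3K4me1 peaks without H3K27ac had median widths of 550 and 525 bp, and those with H3K27ac 1380 and 1359 bp. The distance to the other mark separated the lists further. An H3K27ac peak without H3K4me1 overlap had its nearest H3K4me1 peak at a median of 1338, 1226 and 1156 bp, and 9.64, 8.49 and 10% of such peaks were over 10 kb from one. For H3K4me1 peaks without H3K27ac the median distance was 7537 and 7419 bp, and 43.0 and 42.5% were over 10 kb away. H3K27ac peaks without H3K4me1 thus lay closer to the other mark than H3K4me1 peaks without H3K27ac, in every library. The H3K4me1 lists held more peaks, which by itself brings the nearest one closer, and no expected distance was computed.

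Co-occurrence grew with peak width in both marks, and in the full lists more steeply for H3K4me1. The central base is a single base whatever the width, so a wide peak gains no advantage in this share by its length alone. Each list was then cut into 5 quintiles. From the narrowest to the widest quintile of each list, the mean share with H3K4me1 at the centre of H3K27ac peaks was 61.3, 66.9, 76.3, 85.2 and 85.6%, and the mean share with H3K27ac at the centre of H3K4me1 peaks was 19.6, 26.3, 38.5, 53.2 and 74.5%. The widest quintile was above the narrowest by 24.2 ± 5.41 points for H3K27ac (SD, n = 3; 37.3 with 50000 peaks per list and 15.7 among peaks of at least 500 bp) and by 54.8 ± 1.08 points for H3K4me1 (SD, n = 2). The H3K4me1 width contrast was not computed with 50000 peaks per list, so the marks were compared here only on lists of unequal length. In the H3K27ac lists the rise ended between 1 and 2 kb. The centre share was 61.6 ± 5.03% for peaks up to 300 bp, 85.5 ± 1.40% from 1000 to 2000 bp, 85.4 ± 0.621% from 2000 to 5000 bp and 84.9 ± 1.29% at 10 kb and over (SD, n = 3). In the H3K4me1 lists it went on, with 52.9 ± 2.99% from 1000 to 2000 bp, 73.4 ± 3.12% from 2000 to 5000 bp and 91.1 ± 1.27% at 10 kb and over (SD, n = 2). The share of H3K27ac peaks with H3K4me1 on both sides of a free centre was 5.85 ± 0.305% from 1000 to 2000 bp, 11.4 ± 0.575% from 2000 to 5000 bp and 14.6 ± 1.27% at 10 kb and over. Unlike the centre, this place has a window that grows with the peak.

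Rank by fold within a list gave a different shape for the marks, and the strongest H3K27ac peaks were set apart. Fold enrichment over input, as the peak caller gave it for a whole peak, was used here only as the rank of a peak in its own list. From the lowest to the highest quintile by fold, the mean share of H3K27ac peaks with H3K4me1 at the centre was 60.8, 68.2, 76.5, 87.5 and 82.4%, so it turned down in the highest quintile. The 4th quintile held 88.4, 84.7 and 89.6% in the 3 libraries, and the highest quintile 82.5, 83.3 and 81.3%, lower in each of the 3. The share with H3K4me1 on both sides and a free centre ran 5.17, 4.51, 3.44, 2.45 and 14.7% over the same quintiles. In the highest quintile it was 14.6, 13.2 and 16.2%, and only 1.21% of those peaks on average had no H3K4me1 at either place, against 17.4% in the lowest quintile. H3K4me1 peaks showed no such turn between quintiles, with H3K27ac at the centre of 19.6, 24.9, 35.6, 56.7 and 75.1% from low to high.

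In finer steps the turn began in the 18th of 20 equal steps of H3K27ac fold. The mean centre share was 91.3 ± 1.26% in the 16th step, 91.2% in the 17th, 86.6% in the 18th, 78.7% in the 19th and 73.0 ± 2.05% in the 20th (SD, n = 3). Over the same steps the share with H3K4me1 on both sides was 2.34, 3.72, 9.65, 19.2 and 26.1%. In the 20th step the both-sides share was 25.9, 23.8 and 28.5% in the 3 libraries, the centre share 73.3, 74.9 and 70.8%, and the share with neither 0.147% on average. Almost all of the strongest H3K27ac peaks thus had H3K4me1 nearby, and in about 1 in 4 of them it was missing from the centre. The highest hundredth of peaks by fold was at 26.9 ± 3.32%, no further than the 20th step. In the H3K4me1 lists the centre share was 77.6 ± 2.34% in the 19th step and 75.7 ± 0.471% in the 20th, and 16.2 ± 1.40% of the strongest H3K4me1 peaks had no H3K27ac at either place (SD, n = 2).

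**Figure D2:**
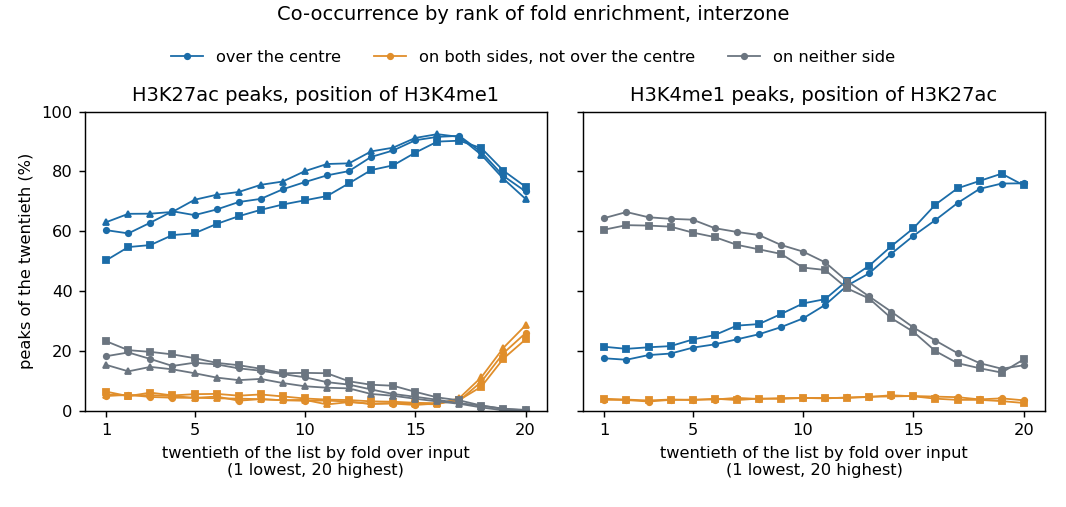
Share of peaks with the other mark at the centre, on both sides of a free centre or on neither side, in 20 equal steps of within-list fold rank from low to high, for the H3K27ac and the H3K4me1 libraries of the interzone (1 line a library, with circles, squares and triangles for replicates 1, 2 and 3). In H3K27ac lists the centre share falls from a mean of 91.3% at the 16th step to 73.0% at the 20th while the both-sides share reaches 26.1%.

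The highest minus the lowest quintile of H3K27ac fold was 21.6 ± 6.34 points for the centre share (20.2, 28.5 and 16.1 points in the 3 libraries) and 9.51 ± 1.76 points for the both-sides share (9.79, 7.63 and 11.1 points). For H3K4me1 peaks the centre contrast was 55.5 ± 0.420 points, 55.8 and 55.2 in the libraries, and the both-sides contrast 0.0171 ± 0.680 points. These sizes depended on which peaks were ranked. Among peaks with a q of at most 0.001 the centre contrast of H3K27ac was 2.26 ± 3.65 points, no larger than its spread, and that of H3K4me1 47.1 points. With 50000 peaks per list it was 32.5 ± 2.95 points for H3K27ac and 34.3 ± 0.969 for H3K4me1, so at equal list length the marks lay within the spread. The both-sides contrast of H3K27ac stayed positive under every alternative tried, from 4.75 points with flanks of 2000 bp to 22.2 points with a q of at most 0.001, and it was 18.0 points without H3K4me1 replicate 2.

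The both-sides share was then read within quintiles of H3K27ac peak width. The widest quintile still ran from a mean of 2171 bp to one of 85909 bp, so width and fold are not fully separated in it. Among H3K27ac peaks of the widest quintile, the share with H3K4me1 on both sides was 14.9% in the highest fold quintile and 3.44% in the 4th fold quintile, and the centre share was 83.3% and 93.0%. Among peaks of the 4th width quintile the both-sides share was 16.4% in the highest fold quintile and 2.13% in the 4th, with centre shares of 80.0% and 91.9%. In the 3 narrower quintiles of width the highest fold quintile was below the lowest. From narrow to wide, the both-sides share was 1.75, 0.542 and 2.84% in the highest fold quintile, against 4.98, 5.22 and 5.29% in the lowest, and the highest fold quintile there held a mean of only 27.7, 100 and 406 peaks a library. In the widest quintile of width the 2nd and 3rd fold quintiles were also above the 4th, at 9.78 and 5.72%.

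The profile of H3K4me1 around H3K27ac peak centres showed this dip directly. In the highest twentieth of fold, H3K4me1 covered the centre of 73.3, 74.9 and 70.8% of peaks. To the left, coverage was highest at 85.2, 83.1 and 86.1% of peaks, 700, 600 and 700 bp from the centre, and to the right at 85.7, 85.1 and 85.6%, 800, 700 and 800 bp away. The dip was thus present in each library and about equal on the sides. Over the whole highest quintile the centre was covered in 82.4% of peaks, the positions 500 bp away in 85.9% to the left and 86.0% to the right, those 1 kb away in 76.2 and 76.1%, and those 5 kb away in 29.4 and 29.9%. The lowest quintile had its maximum at the centre, with 60.8%, and 32.9 and 32.6% at 5 kb to the left and right. H3K27ac around H3K4me1 peaks had no such dip in the means of the quintiles, at 75.1% at the centre and 27.7 and 27.9% at 5 kb in the highest quintile, against 19.6% at the centre and 16.0 and 15.7% at 5 kb in the lowest.

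**Figure D3:**
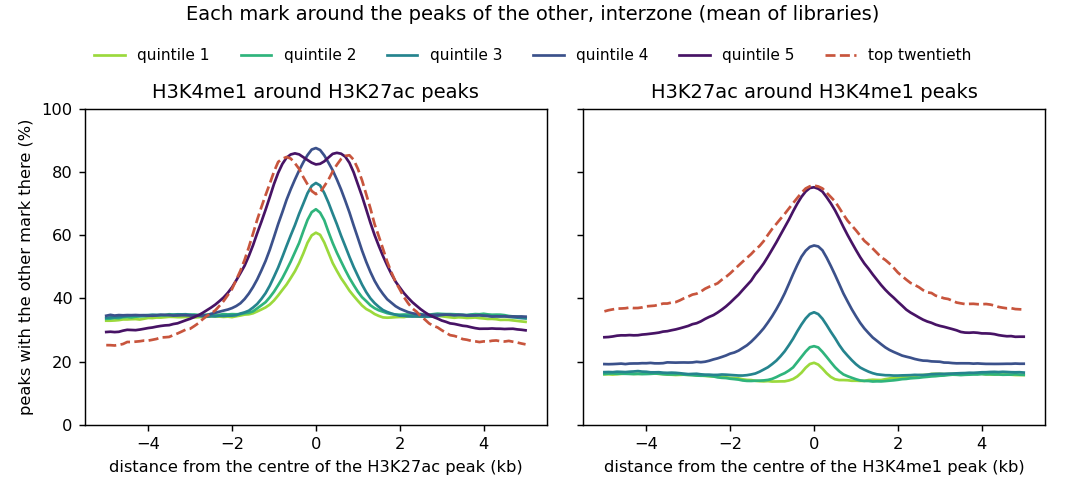
Percentage of interzone peaks at which the other mark covers each position from 5 kb left to 5 kb right of the peak centre, in 100 bp steps, by quintile of fold rank (1 lowest) and for the top twentieth (means over libraries). H3K4me1 around the highest twentieth of H3K27ac peaks dips to 73.0% at the centre between shoulders above 83%, and the lowest quintile peaks at the centre with 60.8%.

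The H3K27ac peaks with H3K4me1 on both sides numbered 3359, 3781 and 3307. The stretch free of H3K4me1 across their centre had a median length of 614, 665 and 584 bp, and 471, 480 and 470 bp in the highest fold quintile, close between libraries. The peaks were wide, at median widths of 1621, 1224 and 1804 bp, against 651, 635 and 728 bp for all H3K27ac peaks. By fold, 50.4, 42.6 and 52.8% of them stood in the highest quintile and 22.4, 19.2 and 23.2% in the highest twentieth of their list. The 2 H3K4me1 lists differed in this measure. In the highest twentieth of H3K27ac fold, the centre was free of H3K4me1 replicate 1 in 44.1, 40.8 and 48.7% of peaks and free of replicate 2 in 28.5, 27.2 and 31.6%. A free centre in both lists, the definition used above, was thus the strict one.

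Joining overlapping or touching peaks of the 3 H3K27ac lists gave 70820 regions, of which 6594, or 9.31%, had the both-sides form in at least 1 list. It was found in 1 list for 3995 regions, in 2 lists for 1549 and in all 3 for 1050. Of the 1050 regions, 960 (91.4%) had H3K27ac in all 3 phalange lists, 735 (70.0%) had the both-sides form in at least 1 phalange list and 354 (33.7%) in all 3.

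In the 5 of these regions with the highest mean fold rank, the H3K27ac peak centres of the 3 lists fell in 1 stretch free of H3K4me1, cut from the joined H3K4me1 lists. At chr4:79786716-79790561 the H3K27ac folds were 13.2, 12.2 and 15.5, and the centre was free of H3K4me1 over chr4:79788432-79789900, 1469 bp. At chr2:15393078-15398777 the folds were 12.99, 12.04 and 16.4 with a free stretch of 452 bp, and at chr7:17078484-17084894 they were 12.4, 11.9 and 16.2 with one of 1304 bp. The remaining 2 lay on chromosome 3, at chr3:79505879-79511840 (folds of 13.9, 11.2 and 16.2, free stretch of 895 bp) and chr3:85658856-85662405 (12.8, 12.7 and 14.0, 529 bp). Their H3K4me1 peaks had folds of 3.28 to 5.28, and all 5 regions carried both marks in the phalange lists too. Coordinates are those of the peak lists (Gallus gallus 6.0, 1-based), and genes at these positions were not looked up for want of an annotation of that build.

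How far an H3K4me1 peak reached past an H3K27ac peak also turned with fold. H3K4me1 extended beyond both edges of 49.8, 53.6, 57.9, 58.4 and 38.5% of H3K27ac peaks from the lowest to the highest fold quintile. It lay wholly within the edges of 0.968, 2.25, 3.87, 8.42 and 22.8% of them. The strongest H3K27ac peaks were therefore the ones that H3K4me1 least often reached past at both edges. They were also the widest, at a median of 3018 bp in the highest fold quintile and 321 bp in the lowest. This reach was not read at matched width, so width and fold are not separated in it.

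Very wide H3K27ac peaks were covered by several H3K4me1 pieces rather than 1. H3K27ac peaks of at least 10 kb numbered 706, 736 and 752. H3K4me1 covered a median of 88.4, 89.1 and 89.0% of their length, and 76.2, 78.8 and 80.1% of them held more than 1 piece, at a median of 3. H3K4me1 peaks of at least 10 kb numbered 552 and 513, were covered by H3K27ac over a median of 96.6 and 97.8%, and held several pieces in 54.5 and 48.5% of cases.

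The widest stretch common to the 3 H3K27ac lists was chr2:32623060-32699554, 76495 bp, with folds of 12.1, 12.3 and 14.8. The study's own region sheets place regions assigned to HOXA6 within it and to HOXA4 at 8390 bp from it, genes of the HOXA cluster that pattern the body and limb axes. H3K4me1 covered 87.4 and 95.3% of it, in 15 and 11 peaks with highest folds of 5.22 and 6.29. The next were chr21:1680020-1745529, 65510 bp, at 1908 bp from a region assigned to SKI, a repressor of TGF-beta signalling, and chr26:4862357-4911910, 49554 bp, which holds a region assigned to MDFI, an inhibitor of myogenic factors. H3K4me1 covered 95.5 and 93.2% of the SKI stretch and 91.0 and 90.7% of the MDFI stretch. The stretch chr7:22595831-22642300, 46470 bp, was covered over 79.4 and 82.6%. The exception among the 5 was chrZ:27339533-27388387, 48855 bp, where H3K4me1 covered only 41.1 and 32.5% in 27 and 23 small peaks, and in phalange 56.4 and 49.6%.

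Exclusion of H3K4me1 from H3K27ac peaks differed between chromosomes. H3K27ac peaks without H3K4me1 made up 24.9, 25.8 and 20.2% on chromosomes 11 to 33, the small microchromosomes (23.6 ± 3.03%, SD, n = 3), against 12.5, 17.5 and 11.3% on chromosomes 1 to 5 (13.8 ± 3.29%). The difference was 9.86 ± 2.25 points and positive in all 3 libraries, 12.4, 8.27 and 8.87 points. Chromosomes 6 to 10 were at 12.6 ± 3.04% and the Z at 15.4 ± 4.74%, both within 1 SD of chromosomes 1 to 5. Chromosomes 11 to 33 were also dense in peaks, with a mean of 87.1 H3K27ac peaks per Mb of spanned length, against 44.9 on chromosomes 1 to 5, and 132 H3K4me1 peaks per Mb, against 87.3. The difference was smaller with a q of at most 0.001, at 2.32 points, and with 50000 peaks per list, which mainly shortens the H3K4me1 lists, it was 1.49 ± 2.49 points, within its spread.

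Within quintiles the difference kept its sign throughout. In H3K27ac replicate 1 it was 16.9, 21.4, 17.8, 11.3 and 1.96 points from the narrowest to the widest quintile, and 19.02, 18.0, 13.3, 10.1 and 1.82 points from the lowest to the highest fold quintile. It was positive in each of the 5 quintiles of width and of fold in all 3 libraries. Within quintiles of width or of fold rank the small chromosomes thus still had more H3K27ac without H3K4me1. H3K4me1 peaks without H3K27ac ran the other way, at 45.1 and 43.7% on chromosomes 11 to 33, against 52.1 and 48.5% on chromosomes 1 to 5, a difference of -5.91 ± 1.55 points (SD, n = 2).

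Single chromosomes spread far more than these classes. The mean share of H3K27ac peaks without H3K4me1 was 73.6% on chromosome 31, 60.0% on 32, 59.1% on 30, 49.9% on 16, 48.0% on 33 and 40.9% on 25, and was lowest on chromosome 6 at 11.6%. Not every small chromosome was high. Chromosomes 12, 24 and 11 were at 13.6, 15.2 and 15.9%, near chromosomes 1 and 5 at 14.8 and 15.3%. On chromosomes 32, 30, 16 and 31 H3K4me1 peaks almost never lacked H3K27ac, in 3.44, 3.51, 5.65 and 8.41% of cases. These peaks were few, at 113 to 120, 224 to 231, 128 to 136 and 84 to 93 a library. Per Mb there were 14.4 on chromosome 31 and 46.4 on 16, against 87.3 on chromosomes 1 to 5, but 125 on 30 and 161 on 32. The W chromosome, which only females carry, held 63, 52 and 54 H3K27ac peaks, and 78.6 ± 2.12% of them lacked H3K4me1. Unplaced sequences held 460, 457 and 404, of which 77.8 ± 2.09% lacked it. How well reads map to these repeat-rich sequences was not measured, and its part in these shares was not tested. Among the chromosome classes the both-sides form was most frequent on the Z, at 9.17 ± 0.903% (SD, n = 3). Chromosomes 1 to 5 were at 6.08 ± 0.358% and chromosomes 11 to 33 at 5.84 ± 0.0702%. Of single chromosomes, 16 was at a mean of 9.19% and 32 at 8.78%. H3K27ac peaks on the Z also ranked higher by fold, at a median percentile of 55.6, against 49.2 on chromosomes 1 to 5.

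**Figure D4:**
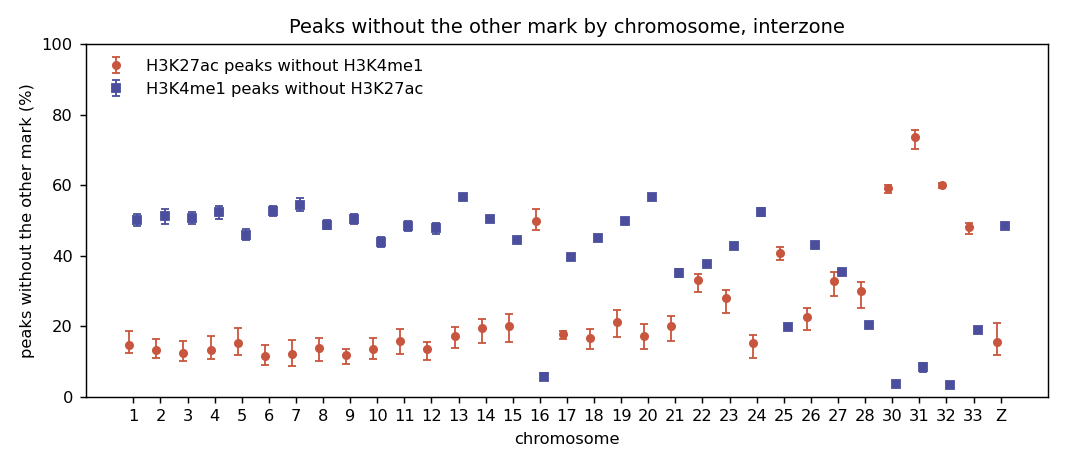
Percentage of interzone H3K27ac peaks without H3K4me1 and of H3K4me1 peaks without H3K27ac on each numbered chromosome and the Z (points are means, bars run from the lowest to the highest library). The H3K27ac share is highest on chromosomes 31, 32 and 30, at 73.6, 60.0 and 59.1%, and lowest on chromosome 6, at 11.6%.

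Merging all 5 interzone lists across gaps under 1000 bp gave 79892 regions, of which 33108 (41.4%) held both marks, 4799 (6.01%) H3K27ac only and 41985 (52.6%) H3K4me1 only. The most frequent kinds were H3K4me1 in both lists with no H3K27ac, 27513 regions, and both marks in all 5 lists, 22559 regions. The regions with both marks in all lists had a median width of 3877 bp and covered 136.7 Mb, those with H3K4me1 alone in both lists 1002 bp and 35.9 Mb. With a q of at most 0.001, 14094 regions had both marks in all lists and 16709 had H3K4me1 alone, and with 50000 peaks per list 8627 regions had H3K4me1 alone. H3K27ac in all 3 lists with no H3K4me1 was found at 821 regions, of median width 1643 bp. This was the least stable count, with 1399 regions when H3K27ac replicate 3 was left out, 2965 with 50000 peaks per list, 2039 when only touching peaks were merged and 403 when gaps under 3000 bp were.

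How often a region held the other mark went with its support. Regions with H3K27ac in 1, 2 and 3 lists numbered 8922, 5145 and 23840, and H3K4me1 was present at 65.5, 82.4 and 96.6% of them. Regions with H3K4me1 in 1 and 2 lists numbered 16259 and 58834, and H3K27ac was present at 10.99 and 53.2%. Nearly every region with H3K27ac in all 3 lists thus also held an H3K4me1 peak, but many regions with H3K4me1 in both lists lacked H3K27ac. The regions were merged over both marks, so a wide region can gather more lists of each mark by its length. Median width was 267.5 bp with H3K27ac in 1 list and no H3K4me1, and 3877 bp with both marks in all 5 lists. The part of width in these shares was not tested.

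**Figure D5:**
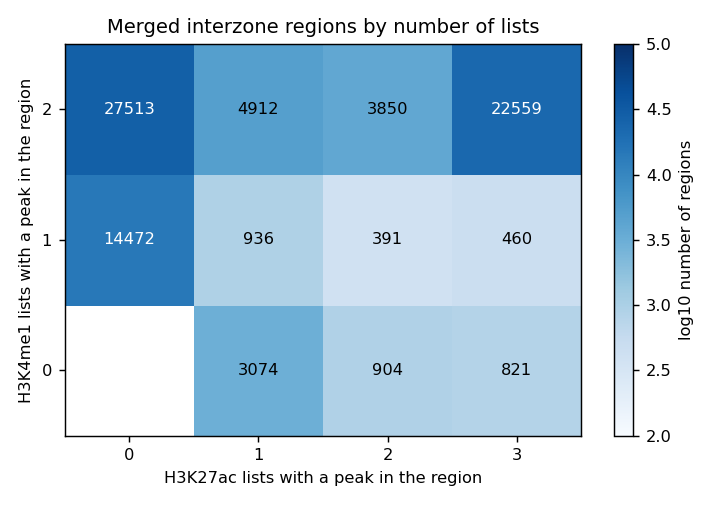
Number of merged interzone regions by how many H3K27ac lists (0 to 3) and how many H3K4me1 lists (0 to 2) hold a peak there. The fullest cells are H3K4me1 in 2 lists without H3K27ac (27513) and both marks in all lists (22559), and 821 regions have H3K27ac in 3 lists without H3K4me1.

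The 821 regions also lay elsewhere in the genome. Of these, 43.8% were on chromosomes 11 to 33 and 16.2% on the W or unplaced sequences, while of the 22559 regions with both marks 25.3% and 0.288% were. Of all interzone H3K27ac peaks a mean of 30.5% were on chromosomes 11 to 33, 0.0981% on the W and 0.765% on unplaced sequences. The 5 strongest by fold rank on numbered chromosomes or the Z were led by chr31:2269650-2274441, with H3K27ac folds of 8.57, 8.95 and 9.66, and chr14:16027523-16029406, with 9.06, 8.76 and 9.39. The others were chr32:622663-628840 (6.53, 7.03 and 7.22), chr1:111651353-111652095 (6.13, 6.58 and 6.81) and chr16:2178466-2187999 (5.65, 7.82 and 6.13). All 5 had H3K27ac in the 3 phalange lists, and only the chromosome 1 region had H3K4me1 there, in 1 of the 2 lists at a fold of 2.67.

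The strongest H3K4me1 regions without H3K27ac in any interzone list were spread over 5 chromosomes. They were chr4:66637305-66639567 with H3K4me1 folds of 7.52 and 9.25, chr1:24839634-24841821 with 7.45 and 8.80, and chr12:17602448-17603729 with 7.48 and 8.33. The other 2 were chr6:1397384-1398955 with 7.04 and 9.15 and chr13:14366693-14368285 with 7.15 and 8.33. These ranked above the 99.9th percentile of their lists, so a high H3K4me1 fold occurred without any H3K27ac peak. None of the 5 had H3K27ac in a phalange list either, and all had H3K4me1 in both phalange lists, at 4.56 and 5.53 on chromosome 12 and 6.32 to 8.67 at the others.

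In the overlaps and contrasts that were tested, the arrangement of the marks was close to that of the phalange. There, 80.3, 78.3 and 85.4% of H3K27ac peaks overlapped H3K4me1 and 48.6 and 50.8% of H3K4me1 peaks overlapped H3K27ac. Interzone minus phalange was 1.46 points for H3K27ac peaks (82.8 ± 3.02% and 81.3 ± 3.66%, exact permutation p = 0.7) and 1.64 points for H3K4me1 peaks (51.3 ± 2.01% and 49.7 ± 1.55%, exact permutation p = 0.667). The both-sides share differed by 0.118 points (exact permutation p = 0.9), the width contrast of H3K27ac by -1.07 points (24.2 ± 5.41 and 25.3 ± 3.68, exact permutation p = 0.9), its fold contrast by -0.925 points (21.6 ± 6.34 and 22.5 ± 4.63, exact permutation p = 0.8) and its both-sides contrast by 1.03 points (9.51 ± 1.76 and 8.48 ± 2.08, exact permutation p = 0.6). The fold contrast of H3K4me1 differed by 0.542 points (exact permutation p = 0.3333) and the chromosome difference by 0.158 points (9.86 ± 2.25 and 9.70 ± 3.25, exact permutation p = 0.9). Each of these differences but that of the H3K4me1 fold contrast was smaller than the SD between interzone libraries, and several changed sign with the processing. That SD leaves out the spread of the other mark, whose joined lists were the same for every library of a tissue. It also holds differences between replicate numbers, which for some measures ran alike in the tissues. Number by number, interzone was higher in every pair for both overlaps, the both-sides contrast and the H3K4me1 fold contrast. The pairs of the other measures were mixed. Some shares of H3K4me1 peaks that were not tested lay further apart. H3K27ac was on 1 side of 10.4 ± 0.133% of them in interzone and 11.9 ± 0.189% in phalange. It was on both sides of 3.99 ± 0.111% and 4.43%. Peaks that overlapped all 3 H3K27ac lists made up 37.0 ± 1.37% and 32.7 ± 0.897% (SD, n = 2). Designs of 3 against 3 libraries cannot give a p under 0.1, nor 2 against 2 one under 0.3333. Of the 22559 interzone regions with both marks in all lists, 90.0% held both marks in the phalange and 8.58% H3K4me1 only. Of the 27513 with H3K4me1 alone, 72.9% held H3K4me1 only there and 15.5% both marks, and of the 821 with H3K27ac alone, 70.9% held H3K27ac only and 18.1% both.

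The marks were last read at genes of joint and limb development, through the regions that the study's supplementary sheets assign to them. The study chose those regions on these same libraries as strongly-active candidate enhancers of only 1 of the tissues, after removing promoters and keeping conserved sequence. It gave that name to regions with both marks, so both marks in the listed tissue are part of the selection. The counts of these regions are a description of the selection, and no test was made. For 50 genes picked by known role, 144 regions of 34 genes were listed as specific to interzone. Of these, 135 held both marks in an interzone list, 1 H3K27ac only and 8 H3K4me1 only. H3K4me1 was in both lists at 116 of the 144, H3K27ac in all 3 lists at 43 and in only 1 list at 51, and 36 were in all 5 lists. Of the 33108 merged regions with both marks, 22559 held them in all 5 lists. H3K27ac was in only 1 list at 936 of those with 1 H3K4me1 list and 4912 with 2. The listed regions were thus less often in every list, though merged regions are joined across gaps and are not like units. Several of these regions can share a peak.

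Among ligands of the BMP and TGF-beta families, BMP2 had 3 interzone regions, 2 of them in all 5 lists and 1 with H3K4me1 only. Its strongest, chr3:15203493-15207549, had H3K27ac folds of 7.17, 5.99 and 7.62 and H3K4me1 folds of 3.84 and 4.90. GDF6, a growth factor of developing joints, had both marks at all 4 of its regions, and at chr2:126514970-126516206 the H3K27ac folds were 2.44, 2.77 and 2.64 and the H3K4me1 folds 4.21 and 4.22. In rank within its lists this GDF6 region was higher for H3K4me1 than for H3K27ac in every library, whereas the ranks of the BMP2 region overlapped between the marks. This was read at 1 of the 4 GDF6 regions and 1 of the 3 BMP2 regions, so it is no comparison of the genes. The BMP2 region stood at the 91.4th to 95.1st percentile for H3K27ac and the 83.2nd and 91.7th for H3K4me1, the GDF6 region at the 31.8th to 55.6th for H3K27ac and the 89.0th and 84.4th for H3K4me1. TGFB3 had both marks at its 3 regions and BMP4 at its 13, only 1 of which was in all 5 lists. PRG4, which encodes the joint lubricant lubricin, had 9 regions, 8 with both marks. OSR1, a transcription factor of joint and connective tissue, had both marks at 11, and SMOC1, a secreted BMP antagonist, at 7, with 5 in all 5 lists.

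The exceptions, where the peak lists as read here differed from the study's own selection, were few. The single H3K27ac-only region was that of CD44, the hyaluronan receptor, at chr5:19266857-19269658 with folds of 3.30, 3.52 and 3.64. The 8 with H3K4me1 only included 3 of the 12 at GAS1, which encodes a surface protein of hedgehog signalling, and the 1 region of WNT9A, a WNT ligand of the interzone, with H3K4me1 in 1 list at a fold of 2.62.

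Regions listed as specific to phalange gave the reverse picture inside the interzone, again by selection. Of 162 such regions of 28 genes, 0 held both marks in interzone, 69 held H3K4me1 only, 34 H3K27ac only and 59 neither. Of all 79892 merged interzone regions, 41985 had H3K4me1 only and 4799 H3K27ac only. H3K27ac only was thus less rare beside H3K4me1 only at the listed regions, which are not units like the merged ones. For the 14 cartilage genes the counts were 51 with H3K4me1 only, 22 with H3K27ac only and 44 with neither, of 117. SOX9, the master regulator of chondrogenesis, had H3K4me1 only at 11 of 17 and in both lists at each of the 11, as at chr18:8722459-8722983 with folds of 4.16 and 4.32. IHH, a signal of the growth plate, had H3K4me1 only at 7 of 10 regions, at folds of 5.77 and 4.50 at chr7:22274010-22278512. BMPR1B, a BMP receptor, had it at 11 of 19 and RUNX2, a factor of chondrocyte hypertrophy and bone, at 7 of 15. Other cartilage genes were more mixed. SOX5 had H3K4me1 only at 7 of 17 regions, H3K27ac only at 6 and neither at 4. For SOX6 these counts were 3, 4 and 7 of 14, and for FGFR3 1, 2 and 4 of 7. COL11A1, a collagen of cartilage fibrils, had neither mark at 6 of 8 regions and H3K27ac only at 2, and the 1 region of COL2A1, the main cartilage collagen, had H3K27ac only, with folds of 2.85, 2.74 and 2.78.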

How the data were processed

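H3K27ac and H3K4me1 ChIP-seq libraries (single-end, 65 bp) were read from broad peak lists that the authors made per library with FastQC, Trimmomatic, Bowtie2, Picard and MACS2 on Gallus gallus 6.0 (versions not given in the sources used here). Each deposited list gives a display score, the mean fold enrichment over input, and −log10 p and −log10 q values, as deposited by the authors. The study states a false discovery rate of 0.05, but 4.03 to 6.55% of H3K27ac and 1.53 to 1.83% of H3K4me1 interzone peaks had a q above 0.05, and all peaks were kept. Read depth is unknown from the lists, and with it how many weak sites each library could detect, so folds were ranked only within a list.

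Overlap needed 1 base, flanks reached 1000 bp, and the other mark was taken from any of its libraries in the tissue. Width and fold quintiles were cut within each list. Libraries were compared by two-sided exact permutation tests. These p-values measure only the spread between these libraries, and whether libraries of both marks came from the same pools is not stated. For shares that involve the other mark, every library of a tissue was set against the same joined lists. Such values are not independent of each other, and their SD and p leave out the spread of the other mark. Named regions were, on numbered chromosomes or Z, the 5 highest by mean fold percentile with H3K27ac in 3 lists alone, with H3K4me1 in 2 lists alone, and with the both-sides form in 3 lists, and the 5 widest stretches common to the H3K27ac lists. Genes were taken from a list of 50 by known role. GAS1, CD44, WNT9A and the other genes in the text were picked from it after their values were seen. The comparison, regions and gene list were chosen with earlier results of these data known. Alternatives were q limits of 0.05 and 0.001, the 50000 peaks of lowest p, a width of at least 500 bp, numbered chromosomes and Z only, an overlap of a 0.5 share, the other mark in every library, flanks of 500 and 2000 bp, tertiles, other merging gaps, each library left out, and a replicate block. Scripts were tested on simulated data. Python 3.11.15, numpy 2.4.6, scipy 1.17.1 and matplotlib 3.10.9 were used. The RNA-seq data, the study's promoter and conservation filters, sequences and gene annotation were not used here.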

Additional observations from a re-analysis of the deposited data

How the results depend on the processing

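Over 22 results and 23 settings, 35 alternatives turned the sign and 52 values or counts without a test moved by more than the spread between libraries or 1.5 times. The other 227 were not all of like size, since differences with a test were held only to their sign and threshold. With 50000 peaks per list the difference in peak number was 0 by construction and that in overlap 0.483 points, against 31.5. Of the 35, 33 were differences between interzone and phalange, of 147 such alternatives. Some of them came from leaving out a library of 1 tissue, which can shorten its joined lists and not those of the other tissue. Others came with settings applied to both tissues alike, and the differences they turned, given below, have no settled sign. Weak peaks enter a list by its depth, which is unknown.

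With a q of at most 0.001, H3K27ac peaks were wider than H3K4me1 peaks by 533 bp, the fold contrast of the centre share was 2.26 points for H3K27ac and 47.1 for H3K4me1, the both-sides contrast 22.2 and the chromosome difference 2.32 points. There were then 14094 regions with both marks in every list and 16709 with H3K4me1 alone. With 50000 peaks per list the fold contrasts were 32.5 and 34.3, the both-sides contrast 14.0, the chromosome difference 1.49 and the width contrast 37.3 points, with 2965 regions of H3K27ac alone and 8627 of H3K4me1 alone. With peaks of at least 500 bp, H3K27ac was wider by 238 bp and these contrasts were 8.47, 53.2, 16.7, 7.15 and 15.7 points. With the other mark required in every library, the fold contrast of H3K4me1 was 54.5, the both-sides contrast 20.4 and the chromosome difference 7.29 points. The both-sides contrast was 4.75 with flanks of 2000 bp, 11.97 with flanks of 500 bp and 4.82 with tertiles, where the fold contrast of H3K4me1 was 48.2. Merging only touching peaks gave 2039 regions of H3K27ac alone, and merging gaps under 3000 bp gave 403, with 17742 of H3K4me1 alone.

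Interzone minus phalange turned to -0.201 for the chromosome difference with a q of at most 0.05, to -0.410 with peaks of at least 500 bp and to -0.174 with the other mark in every library. It turned to -0.693 for the overlap of H3K4me1 peaks with a q of at most 0.001, to 0.14 and 0.877 for the width contrast with 50000 peaks and with peaks of at least 500 bp, to 1.11 and 0.590 for the fold contrast of H3K27ac with 50000 peaks and with tertiles, and to -1.27 for that of H3K4me1 with 50000 peaks. Other settings widened the difference. With a q of at most 0.001, the overlap of H3K27ac peaks was 2.17 points higher in interzone (exact permutation p = 0.1, the smallest possible). With the other mark in every library, the overlap of H3K4me1 peaks was 4.56 points higher and their fold contrast 4.43 (exact permutation p = 0.3333 each, the smallest possible).

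Leaving out each library in turn gave 55.0 to 57.5 points for the fold contrast of H3K4me1, 8.71 to 18.0 for the both-sides contrast, highest without H3K4me1 replicate 2, and 1060 to 1399 regions of H3K27ac alone, highest without H3K27ac replicate 3. Overlap was 79.0 to 84.3% for H3K27ac and 48.0 to 52.8% for H3K4me1, and the both-sides share 5.97 to 8.34%. Interzone minus phalange ran from -2.31 to 4.80 points for the overlap of H3K27ac, -1.69 to 5.30 for that of H3K4me1, -2.09 to 2.41 for the both-sides share, -4.30 to 3.57 for the width contrast, -5.31 to 4.15 and -0.205 to 2.53 for the fold contrasts of H3K27ac and H3K4me1, -5.87 to 9.47 for the both-sides contrast and -1.70 to 1.38 for the chromosome difference. In these settings the tissues had unequal numbers of lists, which by itself can widen these ranges.

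The labels link same-numbered libraries of the tissues only by that number, but some list values ran alike. H3K27ac overlap was 83.0, 79.7 and 85.7% in interzone and 80.3, 78.3 and 85.4% in phalange, by replicate number. The chromosome difference did not, at 12.4, 8.27 and 8.87 against 12.1, 11.1 and 5.99 points. A shared batch was not tested. Deviations from the tissue means correlated between same-numbered libraries at 0.0220, 0.00968 and 0.0456 for H3K27ac and 0.0269 for H3K4me1, none above 0.1. Phalange H3K27ac replicate 2 correlated better with interzone replicate 1, at 0.0134, than with its own number. With this replicate block, the exact sign permutation p was 0.25 for 1.46 and 0.5 for 1.64 points of overlap, 0.75 for the both-sides share, 0.75 for the width contrast, 0.5 for each fold contrast, 0.25 for the both-sides contrast and 0.75 for the chromosome difference, where 3 pairs allow 0.25 at the least and 2 pairs 0.5. With or without the block p could not fall under 0.05, so no call could change.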
